A study of Mus musculus with 15 samples.

Results

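The genes that drive and restrain the G1 phase of the cell cycle were followed across intestinal organoids of 3 genotypes. They were 10 of the 43629 genes in the count table and were chosen by name: the D-type cyclins Ccnd1, Ccnd2 and Ccnd3, their kinase partner Cdk6, the Cip/Kip inhibitors Cdkn1a, Cdkn1b and Cdkn1c, and the INK4 inhibitors Cdkn2a, Cdkn2b and Cdkn2c. All 10 had counts and FPKM (fragments per kilobase of transcript, scaled to the fragments of the library, a level that can be compared between genes). Organoids were grown in Matrigel from crypts of the proximal small intestine of C57B6/129 mice, and poly(A) RNA was sequenced. WT comprised 5 libraries grown with RSPO1 (ENR medium), 4 of Apc flox/flox lines numbered 1, 2, 5 and 6 and 1 of a dox-naive culture that carries R26-rtTA and c3GIC9, whose dox-inducible Cas9 had stayed off. The 4 Apc libraries were of Apc delta/delta organoids with the same numbers in their titles, taken here as line numbers. The 4 P-Rspo3 libraries, labelled 15d, 4d, M and F, were of dox-treated organoids with the Ptprk-Rspo3 inversion. Apc and P-Rspo3 organoids were both grown without RSPO1 (EN medium). The P-Rspo3 libraries are titled EN15d, EN4d, EN_M and EN_F, and no line number is given for them. Whether 15d and 4d are times in EN medium, or share a culture, is not known. The P-Rspo3 cultures are polyclonal populations selected by withdrawal of RSPO1, so medium and genotype cannot be told apart in either comparison with WT. Among these groups, dox treatment is described for P-Rspo3 only. Within WT, the dox-naive culture alone is described as carrying the transgenes. In P-Rspo3 against WT, these differences cannot be told apart from the inversion either.

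In early G1, D-type cyclins bind CDK4 or CDK6, and the active kinase phosphorylates the retinoblastoma protein, which frees E2F factors to switch on S phase genes. INK4 proteins bind CDK4 and CDK6 directly, whereas Cip/Kip proteins bind cyclin-CDK complexes and hold back CDK2. In the intestinal crypt this circuit runs downstream of Wnt signalling, which APC restrains and R-spondins strengthen, and the cells leave the cycle as they move towards the villus.

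The 13 grouped libraries held 28902729 to 35528495 counted reads each. Rspo3 had 6.26 to 11.5 FPKM in P-Rspo3 and at most 0.0112 in WT. In Apc, the Wnt target Axin2 was higher than in WT (log2 fold change 1.97, SE 0.16, adjusted p = 2.6e-06 by edgeR), while the count of the Apc gene itself was higher too (0.69, SE 0.09), and a gene-level count does not check the loss of a floxed exon. The 7 epithelial markers summed to 2375 to 3081 FPKM over these libraries, and the 9 stromal markers to at most 0.633. A further pair of libraries entered no group. One, titled NAIVE_F, carries a P-Rspo3 genotype label and is not the dox-naive library of WT. The other, titled LIPO, carries a dox-naive WT label but lies outside the libraries named for the 3 groups.

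The inhibitor genes Cdkn2a and Cdkn2b lie next to each other on the minus strand of chromosome 4 of GRCm38 and moved in opposite directions in Apc, so the sequences at their starts are given first. Cdkn2a (89274471 to 89294653) and Cdkn2b (89306299 to 89311039) are 11645 bases apart. Cdkn2a has 2 coding transcripts with separate first exons, one from 89294334 to 89294653 and one from 89281986 to 89282192, which share an exon from 89276645 to 89276985. The distal first exon is that of p19Arf and the proximal one that of p16Ink4a, so the counts and FPKM of the gene mix both products. The RefSeq promoters (GRCm38.p6, 250 bases before to 50 after the start) read 5′ to 3′ on the gene's strand as follows, with the core of an E2F motif in capitals.
Cdkn2a, distal start, chr4:89294570-89294869, minus strand: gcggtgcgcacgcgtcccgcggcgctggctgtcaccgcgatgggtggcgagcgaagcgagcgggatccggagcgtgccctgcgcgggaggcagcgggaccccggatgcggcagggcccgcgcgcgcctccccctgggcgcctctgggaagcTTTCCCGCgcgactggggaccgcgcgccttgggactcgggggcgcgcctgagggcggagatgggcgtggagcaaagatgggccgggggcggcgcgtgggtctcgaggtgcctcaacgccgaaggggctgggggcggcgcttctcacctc
Cdkn2a, proximal start, chr4:89282143-89282442, minus strand: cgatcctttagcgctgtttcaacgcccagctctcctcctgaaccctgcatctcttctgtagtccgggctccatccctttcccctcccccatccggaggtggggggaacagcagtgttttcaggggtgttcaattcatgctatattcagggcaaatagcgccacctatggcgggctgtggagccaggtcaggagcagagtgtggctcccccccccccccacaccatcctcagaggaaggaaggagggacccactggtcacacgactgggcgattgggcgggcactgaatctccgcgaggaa
Cdkn2b, chr4:89310983-89311282, minus strand: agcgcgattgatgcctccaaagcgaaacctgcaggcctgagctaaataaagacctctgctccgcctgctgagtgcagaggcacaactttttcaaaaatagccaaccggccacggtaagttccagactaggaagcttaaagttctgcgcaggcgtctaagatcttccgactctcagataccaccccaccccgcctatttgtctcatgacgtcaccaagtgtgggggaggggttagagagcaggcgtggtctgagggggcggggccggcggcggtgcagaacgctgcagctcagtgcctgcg
The distal Cdkn2a promoter had a GC content of 77.0%, above 97.6% of the 32851 mouse promoters in the table, with 45 CpG. The proximal start had 60.3% GC with 12 CpG, and Cdkn2b had 57.7% with 18, against medians of 52.7% and 7 over all promoters. The E2F core (TTTGGCGC, TTTCGCGC or TTTCCCGC on either strand) began 99 bases before the distal start and was not in the windows of the proximal start or of Cdkn2b. It was present in 1.84% of all promoters.

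Of the 10 genes, 7 had 11 promoters in the table; Ccnd1, Ccnd2 and Cdkn1c had none. The TCF/LEF core (CTTTGA or CTTTGT, either strand) occurred in 31.2% of all promoters and among these 11 at 1 start of Ccnd3. The E-box CACGTG, the site of MYC and related factors, was found in 7.15% of all promoters. It occurred at 1 start of Cdkn2c and in the promoter of Cdk6, the kinase gene that was higher in Apc, which is shown with the E-box in capitals, 220 bases before the start.
Cdk6, chr5:3343643-3343942, plus strand: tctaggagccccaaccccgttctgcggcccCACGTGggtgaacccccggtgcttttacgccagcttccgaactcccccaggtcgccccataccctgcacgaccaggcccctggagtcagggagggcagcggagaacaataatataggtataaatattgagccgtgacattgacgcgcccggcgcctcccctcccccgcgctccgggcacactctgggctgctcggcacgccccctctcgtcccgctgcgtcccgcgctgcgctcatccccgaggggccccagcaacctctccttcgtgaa
These matches describe letters in a window and say nothing of binding.

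In Apc organoids 5 of the 10 genes were higher than in WT (Ccnd1, Ccnd2, Cdk6, Cdkn1c and Cdkn2a), 2 were lower (Cdkn1a and Cdkn2b), and 3 did not pass the test (Ccnd3, Cdkn1b and Cdkn2c). The test was edgeR's quasi-likelihood test on counts, with p adjusted over all 16749 genes tested and a threshold of 0.05. Of all genes, 30.0% were higher and 29.0% lower by this rule, so a call in Apc is common. With an absolute log2 fold change above 1 as well, 4 of the 10 were higher and 1 lower, where 26.3% of all genes were called in either direction. Cdkn2a is among the higher genes in both counts. It passed the filter on low values (FPKM of at least 0.1) against WT only through its level in Apc, so it had to differ there. In P-Rspo3 organoids 0 of the 10 differed from WT, and 0 had an unadjusted p under 0.05. Between Apc and P-Rspo3, both grown without RSPO1, 4 were higher in Apc (Ccnd1, Cdk6, Cdkn1c and Cdkn2a) and 1 lower (Cdkn2b), with 28.7% and 27.7% of 16456 genes called in these directions. The same 5 genes also passed the fold threshold, against 26.7% of all genes. The comparisons share libraries and are not independent of each other. By FPKM, every Apc library lay above every WT library for 37.9% of all genes and below for 16.6%, and above every P-Rspo3 library for 38.0% and below for 17.5%, so groups that do not overlap are also common with Apc.

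**Figure D1:**
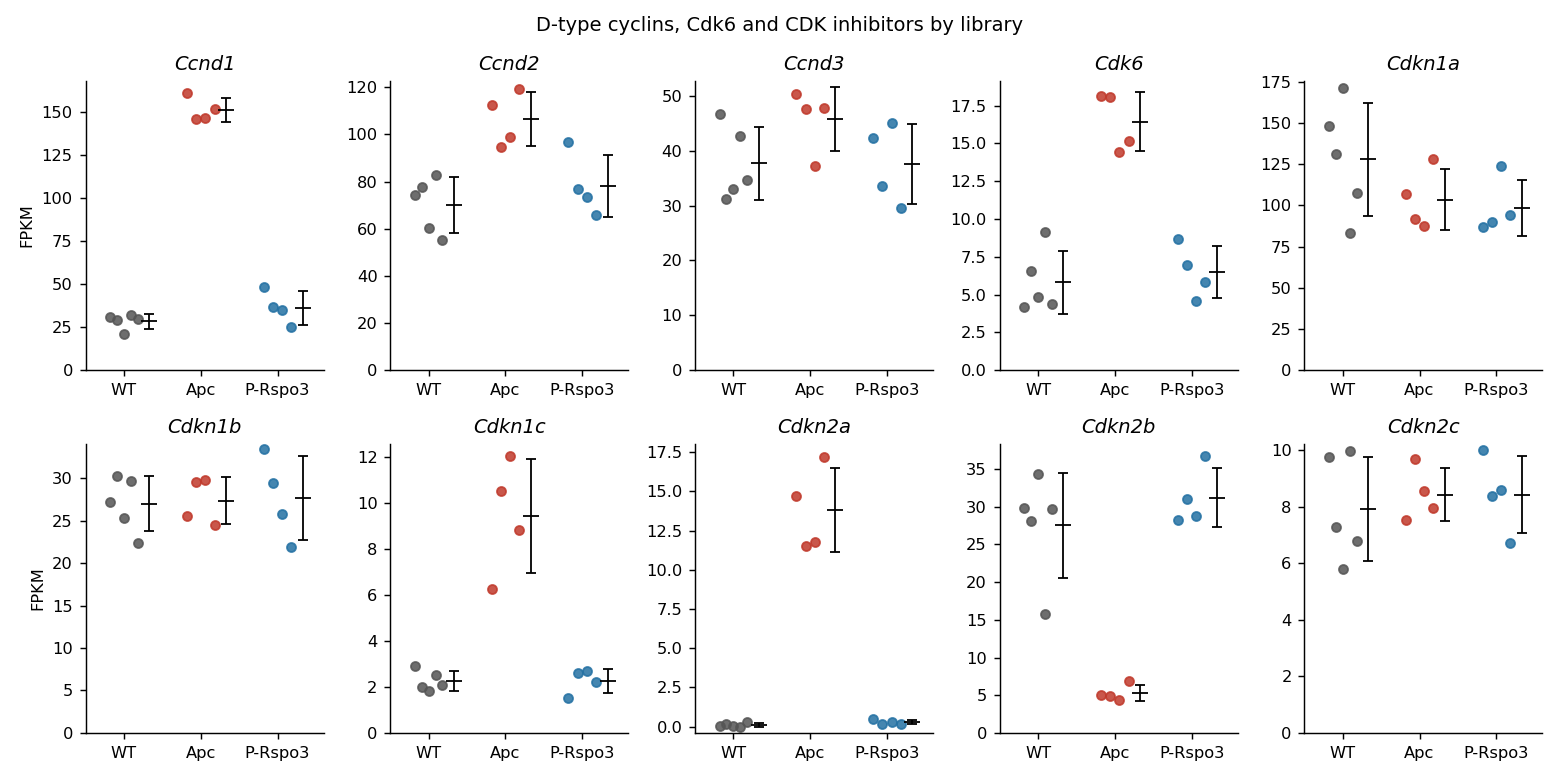
FPKM of each gene (y axis, linear) in every library of WT (grey, n = 5), Apc (red, n = 4) and P-Rspo3 (blue, n = 4); points are libraries, in the order of their labels, and the black marks are the mean and SD. The Apc libraries lie above all others for Ccnd1, Cdk6, Cdkn1c and Cdkn2a and below all others for Cdkn2b, while the ranges of WT and P-Rspo3 overlap in every panel.

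Ccnd1, the D-type cyclin best known as a Wnt-responsive gene in intestinal tumours, showed the clearest separation among the cyclins. In WT lines 1, 2, 5 and 6 and the dox-naive culture it had 30.8, 29.2, 20.9, 31.8 and 29.7 FPKM. In Apc lines 1, 2, 5 and 6 it had 161, 146, 146 and 152 FPKM. Every Apc library was thus far above every WT library, and the Apc libraries differed little among themselves (151 ± 6.93, SD, n = 4). The P-Rspo3 cultures 15d, 4d, M and F had 48.5, 36.4, 35.2 and 24.8 FPKM, with F inside the WT range and the other 3 above it. The log2 fold change of the counts was 2.08 (SE 0.09, adjusted p = 3.4e-08) in Apc against WT, 1.85 (SE 0.13, adjusted p = 3.6e-06) against P-Rspo3, and 0.25 (SE 0.13, adjusted p = 0.457) in P-Rspo3 against WT, all by edgeR. Within each numbered line the log2 ratio of Apc to WT lay between 1.95 and 2.41. The 3′ end of Ccnd1 (chromosome 7, 144929931 to 144939925, minus strand) overlaps a gene annotated as LTO1 by 1771 bases on the other strand; LTO1 had 361 to 724 counts, against 2221 to 18645 for Ccnd1.

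Ccnd2, which is also expressed in crypt progenitors, moved less. The WT libraries had 74.3, 77.7, 60.1, 82.6 and 55.3 FPKM in the same order, the Apc libraries 112, 94.8, 99.1 and 119, and the P-Rspo3 libraries 96.8, 77.0, 73.3 and 65.8. The FPKM of all Apc libraries lay above those of WT, whereas P-Rspo3 overlapped both groups. On counts the log2 fold change was 0.32 (SE 0.12, adjusted p = 0.034) against WT and 0.19 (SE 0.11, adjusted p = 0.186) against P-Rspo3 by edgeR. With the line number as a block, which also leaves out the dox-naive library, the first became 0.25 with an adjusted p of 0.061, so the call was lost. It was also lost without any single one of WT 5, the dox-naive library, Apc 1 or Apc 6 (adjusted p = 0.063 to 0.094). Ccnd3, the cyclin of the family linked most to differentiating cells, averaged 37.7 ± 6.71 FPKM in the 5 WT, 45.7 ± 5.85 in the 4 Apc and 37.6 ± 7.30 in the 4 P-Rspo3 libraries (± SD), with a log2 fold change of -0.04 (SE 0.09, adjusted p = 0.745 by edgeR) in Apc against WT and -0.04 (SE 0.10) in P-Rspo3 against WT. Its last 361 bases overlap Bysl on the other strand.

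Because FPKM is set per length, the make-up of the family could be compared within a library. Ccnd2 was the most abundant D-type cyclin in all WT and P-Rspo3 libraries, with 51.3% ± 3.86 (SD, n = 5) and 51.6% ± 2.93 (SD, n = 4) of the summed FPKM. In Apc, Ccnd1 took its place, with 49.9% ± 1.77 (SD, n = 4), against 21.0% ± 2.39 in WT and 23.5% ± 2.29 in P-Rspo3. The share of Ccnd1 ran from 47.6% to 51.8% in Apc and did not exceed 25.9% elsewhere. The sum of the 3 cyclins was 282 to 323 FPKM in Apc, 114 to 157 in WT and 120 to 188 in P-Rspo3.

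**Figure D2:**
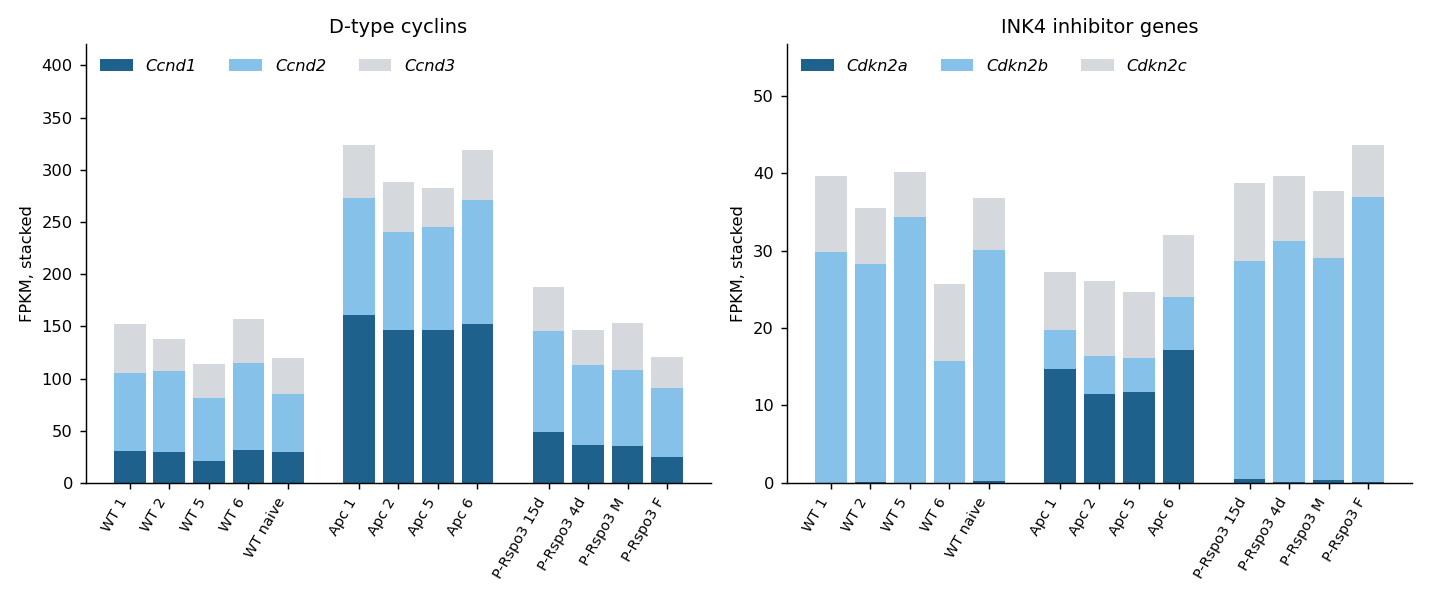
Stacked FPKM (y axis, linear, from 0) of the 3 D-type cyclins (left) and the 3 INK4 inhibitor genes (right), 1 bar per library, ordered by group. The Ccnd1 segment makes up 47.6% to 51.8% of the cyclin bar in Apc, and the Cdkn2a segment at least 44.2% of the INK4 bar in Apc and at most 1.27% in the other libraries.

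Cdk6, the catalytic partner of the D-type cyclins, had 4.17, 6.55, 4.86, 9.16 and 4.39 FPKM in WT, 18.1, 18.1, 14.4 and 15.1 in Apc, and 8.65, 6.97, 4.58 and 5.86 in P-Rspo3. The Apc libraries were above all others, and WT 6 and P-Rspo3 15d were the highest of their groups. The log2 fold change was 1.25 (SE 0.21, adjusted p = 4.0e-04) in Apc against WT and 1.12 (SE 0.17, adjusted p = 3.8e-04) against P-Rspo3 by edgeR, and 0.14 (SE 0.24, adjusted p = 0.860) in P-Rspo3 against WT. Line 6, whose WT culture was high, had the smallest log2 ratio of Apc to WT at 0.51, and line 1 the largest at 1.92. The related kinase Cdk4, which is not among the 10, was 0.66 (SE 0.08, adjusted p = 5.5e-05) higher in Apc than in WT on the log2 scale.

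Among the Cip/Kip inhibitors, Cdkn1a (p21), a direct target of p53 that also marks cells leaving the cycle, was the most abundant. It had 148, 131, 171, 83.0 and 108 FPKM in WT, 107, 91.5, 87.5 and 128 in Apc, and 86.8, 89.8, 124 and 93.9 in P-Rspo3. All 3 groups overlapped, and WT 6 was lower than every other library. On counts Cdkn1a was lower in Apc than in WT, with a log2 fold change of -0.70 (SE 0.21, adjusted p = 0.015 by edgeR), but not in line 6, where the log2 ratio was 0.32. When FPKM was tested in place of counts, the change was -0.28 with an adjusted p of 0.257 by limma on log2(FPKM + 1), and the call was lost. Against P-Rspo3 the log2 fold change was -0.26 (SE 0.15, adjusted p = 0.158), and P-Rspo3 against WT gave -0.42 (SE 0.21, adjusted p = 0.423).

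Cdkn1b (p27), which accumulates in resting and differentiating cells, averaged 26.99 ± 3.23 FPKM in the 5 WT, 27.3 ± 2.77 in the 4 Apc and 27.7 ± 4.95 in the 4 P-Rspo3 libraries (± SD). Its log2 fold change on counts was -0.18 (SE 0.09, adjusted p = 0.099) in Apc against WT and -0.26 (SE 0.11, adjusted p = 0.069) against P-Rspo3 by edgeR. With the line block, which also leaves out the dox-naive library, the former became -0.25 with an adjusted p of 0.039. Without that library and with no block it was -0.24 (adjusted p = 0.021). Cdkn1b therefore changed its side of the threshold with the choice of WT libraries.

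Cdkn1c (p57) is imprinted and expressed from the maternal allele. It had 2.90, 1.997, 1.82, 2.52 and 2.10 FPKM in WT, 6.29, 10.5, 12.1 and 8.84 in Apc, and 1.53, 2.60, 2.70 and 2.23 in P-Rspo3. Apc stood above the other groups in every library, and WT and P-Rspo3 overlapped over most of their ranges. The log2 fold change was 1.77 (SE 0.19, adjusted p = 1.6e-05) in Apc against WT, 1.81 (SE 0.25, adjusted p = 2.0e-04) against P-Rspo3 and -0.02 (SE 0.20, adjusted p = 0.989) in P-Rspo3 against WT by edgeR. The ratio within lines varied, from 0.87 in line 1 to 2.35 in line 5 on the log2 scale. Even so, Cdkn1c made up 4.52% to 9.32% of the summed Cip/Kip FPKM in Apc and 0.920% to 2.19% in WT, since Cdkn1a remained the largest member in all 13 libraries (67.6% to 86.3%).

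Cdkn2a was barely detected outside Apc. It had 1, 5, 1, 0 and 9 counts in WT 1, 2, 5, 6 and dox-naive, 15, 5, 9 and 5 in P-Rspo3 15d, 4d, M and F, and 485, 345, 373 and 603 in Apc 1, 2, 5 and 6. In FPKM the Apc libraries had 14.7, 11.5, 11.8 and 17.2, and no other grouped library exceeded 0.490. Against WT the gene passed the filter on low values only through its level in Apc, so it had to differ there; against P-Rspo3 it passed in all 8 libraries. The log2 fold change was 6.66 (SE 0.55, adjusted p = 2.4e-06) in Apc against WT and 5.34 (SE 0.31, adjusted p = 1.4e-06) against P-Rspo3 by edgeR. Summed over libraries, 1806 reads in Apc stood against 16 in WT, a rate ratio of 108 with an exact 95% interval of 66.5 to 190.0 that covers counting error only. The dox-naive library held 9 of the 16 WT reads, and without it the rate ratio was 200.5 (97.1 to 499) and the log2 fold change 7.51. For P-Rspo3 against WT, 34 reads stood against 16, a rate ratio of 2.64 (1.42 to 5.12, counting error only), and 4.88 (2.13 to 13.04) without the dox-naive library. Across libraries the counts of these groups overlapped, and the log2 fold change of 1.32 did not pass the test (SE 0.74, adjusted p = 0.467 by edgeR; 2.17 and 0.208 without the dox-naive library).

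Cdkn2b (p15), an INK4 inhibitor known as a TGF-beta-responsive gene, went the other way. It had 29.8, 28.1, 34.3, 15.8 and 29.8 FPKM in WT, 5.01, 4.88, 4.40 and 6.87 in Apc, and 28.2, 31.1, 28.7 and 36.7 in P-Rspo3. Every Apc library lay below every other library, and WT 6 was the lowest of the rest. The log2 fold change was -2.68 (SE 0.24, adjusted p = 3.8e-06) in Apc against WT, -2.81 (SE 0.17, adjusted p = 1.7e-06) against P-Rspo3 and 0.14 (SE 0.21, adjusted p = 0.818) in P-Rspo3 against WT by edgeR. Cdkn2b was lower in all 4 lines, least in line 6 (-1.44 on the log2 scale) and most in line 5 (-3.29).

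Cdkn2c (p18), a further INK4 inhibitor on chromosome 4 away from this pair, averaged 7.91 ± 1.85 FPKM in the 5 WT, 8.42 ± 0.927 in the 4 Apc and 8.42 ± 1.36 in the 4 P-Rspo3 libraries (± SD). No comparison passed the test, with a log2 fold change of -0.12 (SE 0.14) in Apc against WT, -0.18 (SE 0.11) against P-Rspo3 and 0.07 (SE 0.13) in P-Rspo3 against WT. Cdkn2d, the remaining INK4 gene, was also near 0 (0.07, SE 0.18, Apc against WT). The leading INK4 gene thus differed between groups. Cdkn2b made up 76.4% ± 9.19 (SD, n = 5) of the summed FPKM of Cdkn2a, Cdkn2b and Cdkn2c in WT and 78.0% ± 4.76 (SD, n = 4) in P-Rspo3, but 19.1% ± 1.62 (SD, n = 4) in Apc, where Cdkn2a made up 49.9% ± 4.77. Their sum was 25.7 to 40.1 FPKM in WT, 24.7 to 32.0 in Apc and 37.6 to 43.6 in P-Rspo3.

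**Figure D3:**
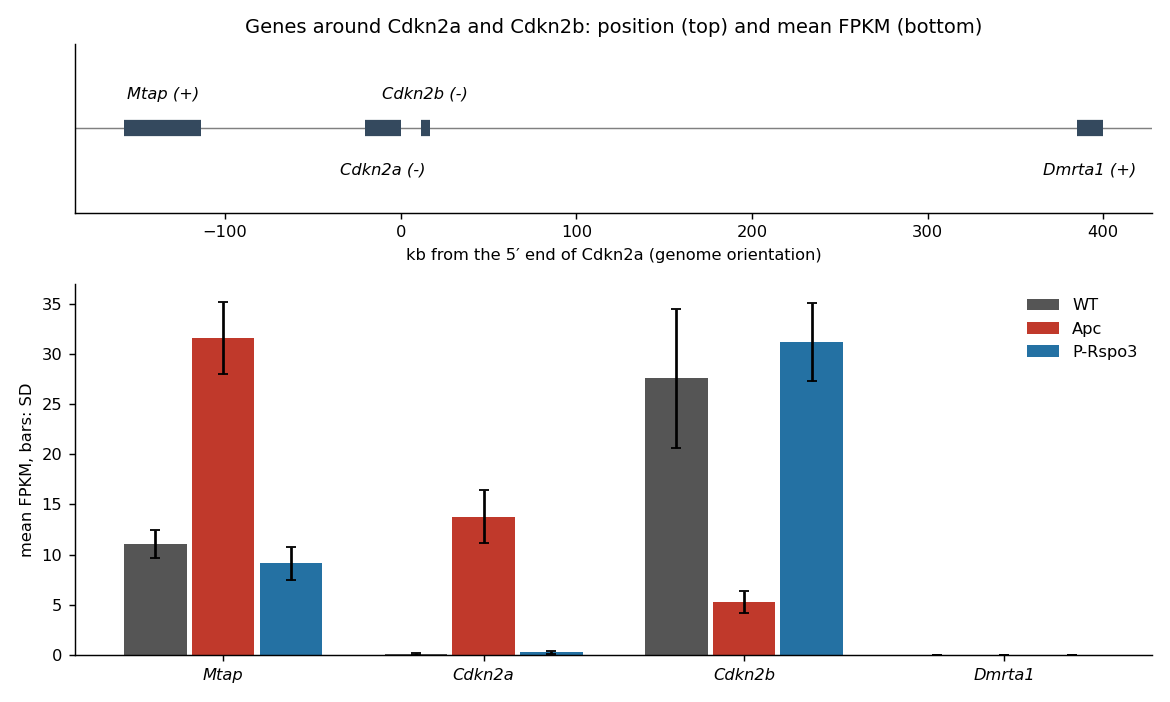
Top, the genes Mtap, Cdkn2a, Cdkn2b and Dmrta1 drawn to scale in kb from the 5′ end of Cdkn2a, with the strand in brackets; bottom, their mean FPKM (y axis, linear) in WT (n = 5), Apc (n = 4) and P-Rspo3 (n = 4), with SD bars. Mtap and Cdkn2a are highest in Apc and Cdkn2b lowest, and Dmrta1 is at or near 0 in all groups.

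Mtap, the metabolic gene on the other side of Cdkn2a, averaged 31.6 ± 3.59 FPKM in the 4 Apc, 11.1 ± 1.37 in the 5 WT and 9.13 ± 1.62 in the 4 P-Rspo3 libraries (± SD), a log2 fold change of 1.23 (SE 0.10, adjusted p = 2.1e-06 by edgeR) in Apc against WT. Dmrta1, on the far side of Cdkn2b, had at most 1 count in any grouped library. Within 500 kb of the pair the annotation lists 23 protein-coding genes, of which 3 (Mtap, Cdkn2a and Cdkn2b) reached a mean of 1 FPKM in any group. Cdkn2b was therefore the one lower gene among the expressed protein-coding genes of this interval.

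**Figure D4:**
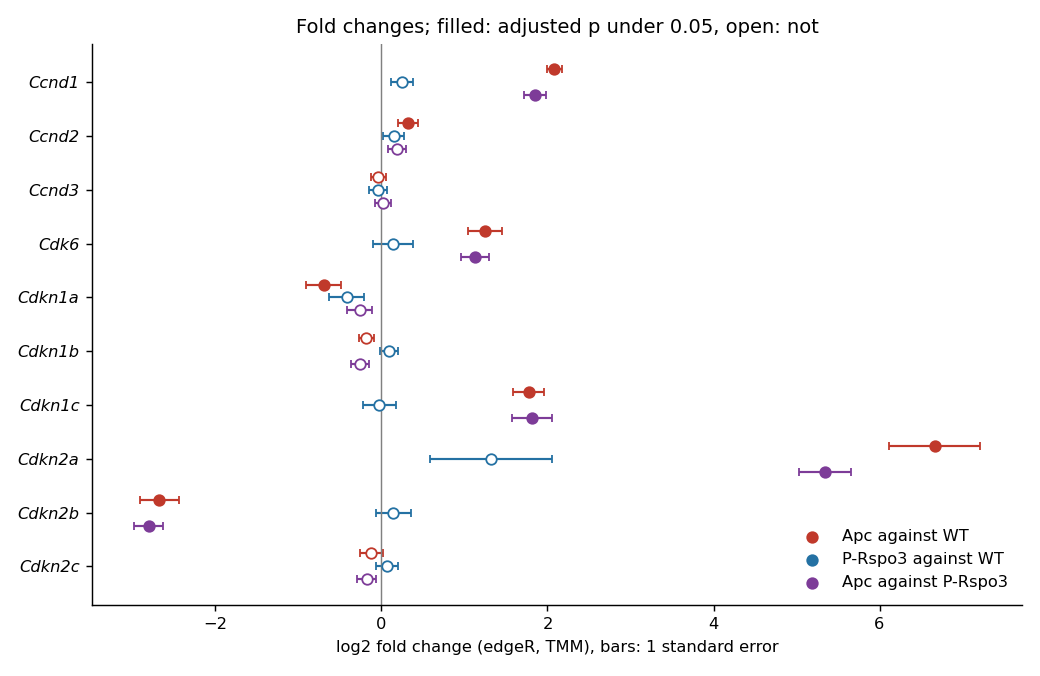
Log2 fold change of each gene (x axis, edgeR on counts, bars 1 SE) for Apc against WT (red), P-Rspo3 against WT (blue) and Apc against P-Rspo3 (purple); filled points have an adjusted p under 0.05. Values run from -2.81 to 6.66 in the comparisons with Apc, and every P-Rspo3 against WT point is open.

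For P-Rspo3 against WT, the fold changes of the 10 genes lay between -0.42 (Cdkn1a) and 1.32 (Cdkn2a), and the smallest adjusted p was 0.423. Over all 15992 genes tested, 0.00625% were higher, 0% lower, and 0.00625% passed with the fold threshold as well; this was a single gene, Rspo3. An unadjusted p under 0.05 was seen for 2159 genes and for 0 of the 10. DESeq2 called 204 genes higher and 304 lower, and again 0 of the 10. The FPKM ranges of WT and P-Rspo3 overlapped for all 10, which is the usual outcome here, since 2.06% of all genes had every P-Rspo3 library above every WT library and 2.08% below. A change of the size of the standard errors above, up to 0.24 outside Cdkn2a, could not be told from none.

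The order of the levels differed accordingly. In WT, Cdkn1a (128 FPKM on average) and Ccnd2 (70.0) led, followed by Ccnd3, Ccnd1, Cdkn2b and Cdkn1b, whose neighbouring ranges overlapped (37.7 to 26.99), then Cdkn2c and Cdk6, which overlapped too, Cdkn1c (2.27) and Cdkn2a (0.105). P-Rspo3 had the same order of means, with Cdkn1a and Ccnd2 overlapping. In Apc, Ccnd1 (151) led, Ccnd2 (106) and Cdkn1a (104) overlapped, Ccnd3 and Cdkn1b followed, and Cdk6, Cdkn2a, Cdkn1c and Cdkn2c formed a chain of overlapping neighbours from 16.4 to 8.42, with Cdkn2b last at 5.29.

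Libraries of 1 group also differed in a recurring way. WT 6 was the highest WT library for Ccnd1, Ccnd2, Cdk6 and Cdkn2c and the lowest for Cdkn1a, Cdkn2a and Cdkn2b. P-Rspo3 15d was the highest of its group for Ccnd1, Ccnd2, Cdk6, Cdkn1b, Cdkn2a and Cdkn2c and the lowest for Cdkn1a, Cdkn1c and Cdkn2b. The summed FPKM of 12 enterocyte markers was lowest in these libraries, with 3930 in WT 6 and 6291 to 10660.0 in the other WT libraries, and 2855 in P-Rspo3 15d and 3963 to 6173 in its group. The sum of 15 proliferation genes was highest there, 810 in WT 6 and 816 in 15d. WT 1 came next in its group with 750, and P-Rspo3 M, at 801, was close to 15d. The lowest sums were 625 (WT 5) and 575 (P-Rspo3 F). P-Rspo3 M nonetheless had an enterocyte sum of 4529, above that of 15d. The enterocyte marker Krt20 was lowest in WT 6 within WT (22.2 FPKM). Within P-Rspo3 it was lowest in M (22.3) and reached 56.9 in 15d, below only F (66.3). Cdkn2b was highest in WT 5 and P-Rspo3 F, the libraries with the highest enterocyte sum of their groups.

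These markers moved with genotype as well. All 12 enterocyte markers were lower in Apc than in WT, and their sum was 154 to 186 FPKM in Apc. Of the Paneth markers 5 of 8 were lower and 2 higher, of the goblet markers 7 of 7 lower, of the enteroendocrine markers 5 of 8 lower, and of the tuft markers 5 of the 5 tested lower, with medians of -2.32, -3.59, -3.09 and -3.60 on the log2 scale against 0.00058 over all genes. With limma on log2(FPKM + 1), 3 of the 5 tuft markers were lower, with a median of -0.35. Of the stem cell markers 5 of 6 were higher and 1, Olfm4, fell by 9.78. In whole cultures, fewer cells of a type and less RNA per cell cannot be told apart, and the part of cell type in the changes of Cdkn2b, Cdkn1a and the other genes was not tested. Markers of cells outside the epithelium stayed low in sum, at most 0.633 FPKM for 9 stromal, 10.6 for 6 immune and 2.68 for 4 endothelial genes; of these, the stromal markers ranged from 0.241 to 0.420 in Apc and 0.0832 to 0.210 in WT, the immune markers from 3.91 to 10.6 and 2.11 to 3.56, and the endothelial markers from 2.35 to 2.68 and 0.341 to 0.507. Single genes of these lists moved in both directions in Apc against WT. Of the 6 immune genes 3 were tested, of which 1 was higher and 2 were lower. Cd68 averaged 6.24 FPKM in Apc and 0.780 in WT and rose by 2.55 (SE 0.31) on the log2 scale. Itgam fell by 2.54 (SE 0.29), and Csf1r fell by 3.92 (SE 0.85) on 1 to 20 counts in Apc and 41 to 290 in WT. Of the endothelial genes, Cdh5 had 217 to 372 counts in Apc and 0 in the other groups, Tek rose by 3.82 (SE 0.37) and Pecam1 fell by 2.95 (SE 0.37) on the log2 scale, and Kdr was at 0 counts in all 3 groups. Of the 9 stromal genes 2 were tested: Pdgfra rose by 4.50 (SE 0.44) on 54 to 73 counts in Apc and 0 to 4 in WT, and Pdgfrb fell by 3.63 (SE 0.63) on 0 to 8 and 18 to 39. Cdh5, Pdgfra and Pdgfrb passed the filter on low values only through the group where they were high, so they had to differ.

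**Figure D5:**
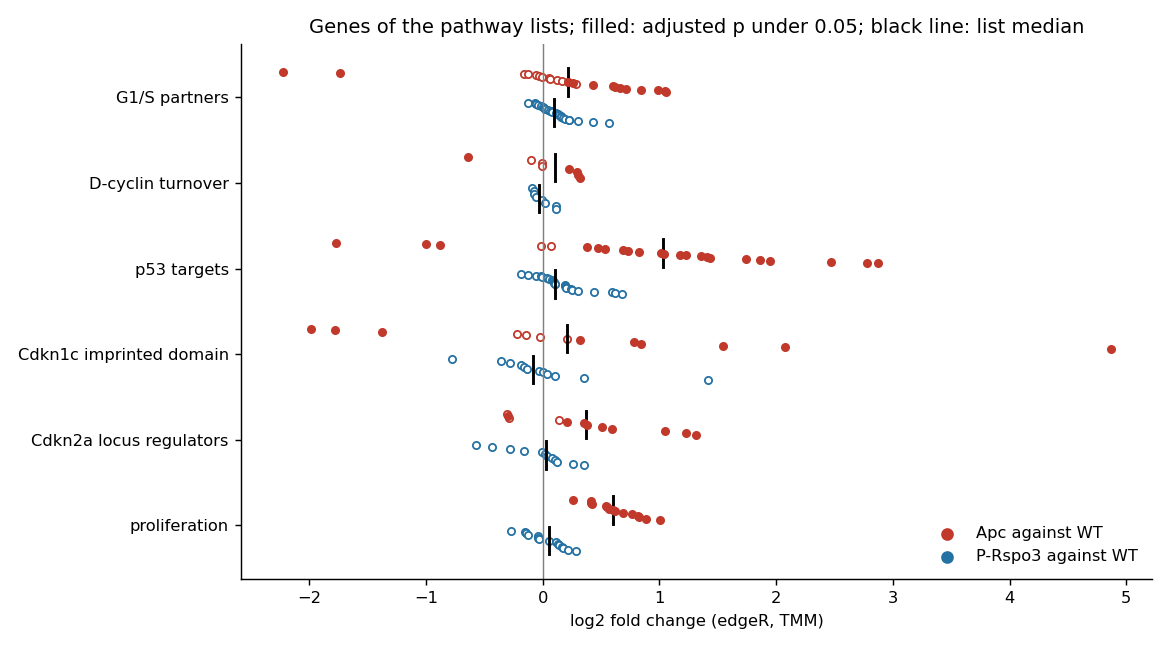
Log2 fold change (x axis, edgeR on counts) of each tested gene of 6 lists for Apc against WT (red) and P-Rspo3 against WT (blue); filled points have an adjusted p under 0.05 and black lines are list medians. The p53 target median is 1.03 in Apc against WT, and no gene of the lists passed the test in P-Rspo3 against WT.

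The partners of these genes at the G1/S transition were read from a list of 24. In Apc against WT 11 were higher, 2 lower and 11 did not pass, with a median log2 fold change of 0.22 (0.00058 over all genes). Of all genes, 30.0% were higher and 29.0% lower, and these shares apply to every list in this comparison. With limma on log2(FPKM + 1), which moved the median of all genes by 0.17, 17 were higher and 1 lower, with a median of 0.50. E2f7, a repressor of the E2F family (1.06, SE 0.15), and Cks1b, a small CDK-binding subunit (1.05, SE 0.12), were the most raised. E2f2, an E2F activator, fell by 2.23 (SE 0.12), with 1935 to 3053 counts in WT and 639 to 797 in Apc. Rb1, which encodes the substrate of the cyclin D kinases, fell by 1.73 on counts (SE 0.12), but its FPKM averaged 16.5 ± 2.93 in the 4 Apc and 6.73 ± 1.13 in the 5 WT libraries (± SD), and limma on log2(FPKM + 1) gave 1.17. The deposited units thus went in opposite directions for this gene. The count scaled to the library total (CPM), divided by FPKM, was 14.4 to 21.3 for Rb1 in WT and 2.21 to 3.50 in Apc. For the 10 genes this ratio was 0.943 to 1.06 times that of WT in Apc, against 0.153 times for Rb1.

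Against P-Rspo3, 9 of the 24 partners were higher in Apc and 2 lower on counts. E2f1 (1.13, SE 0.08) and Cks1b (1.05, SE 0.13) rose most, while E2f2 fell by 2.78 (SE 0.12) and Rb1 by 2.14 (SE 0.13). With limma on log2(FPKM + 1), Rb1 turned to 1.31, and 13 partners were higher and 1 lower. The 15 proliferation genes all rose in Apc relative to WT, Mcm2 of the replicative helicase the most (1.01, SE 0.11), with a median of 0.61, and 12 of 15 were higher than in P-Rspo3. Of the factors that control D-type cyclin turnover, 8 of 9 were tested; 4 were higher in Apc than in WT, with Btrc at 0.32 (SE 0.09) and Fbxw8 at 0.30 (SE 0.07), and 1 lower, Fbxo4, at -0.64 (SE 0.15). The median was 0.11, and 0.25 with limma on log2(FPKM + 1), where 5 were higher and 0 lower. Fbxo31, the gene not tested, had 516 to 870 counts in WT and 855 to 1008 in Apc. It failed the filter because it had 0 FPKM in every group.

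Most p53 targets were higher in Apc. Of the 24 listed, 19 rose, 3 fell and 2 did not pass in Apc against WT, and the median log2 fold change was 1.03. Plk2, a stress-induced kinase (2.87, SE 0.08, adjusted p = 2.9e-09), and Phlda3, an inhibitor of AKT (2.78, SE 0.19, adjusted p = 5.8e-07), rose most, whereas Sesn1 fell by 1.77 (SE 0.09) and the death receptor gene Fas by 1.00 (SE 0.19). Cdkn1a, which is not in the list, had -0.70 on counts, a call that was lost with FPKM. Against P-Rspo3, 18 were higher and 3 lower. Trp53 itself was 0.74 (SE 0.08) higher in Apc than in WT, and no gene of the list passed edgeR's test in P-Rspo3 against WT, where the median was 0.11 and DESeq2 called 2 higher.

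Around Cdkn1c, 13 of 14 genes of the imprinted domain on distal chromosome 7 were tested in Apc against WT; 6 were higher and 3 lower, with a median of 0.21. H19, a maternally expressed RNA, had a log2 fold change of 4.87 (SE 0.73) on 15 to 99 counts in Apc and 0 to 3 in WT; it passed the filter on low values only through its level in Apc, so it had to differ. Osbpl5 rose by 2.07 (SE 0.14). The paternally expressed growth factor gene Igf2 fell by 1.99 (SE 0.38) on 13 to 43 counts in Apc and 48 to 98 in WT, and Trpm5, a tuft cell channel gene, fell by 1.78 (SE 0.24) on counts, while its FPKM averaged 2.04 ± 0.339 in the 4 Apc and 2.39 ± 0.770 in the 5 WT libraries (± SD). Against P-Rspo3, 7 were higher and 3 lower on counts; with FPKM 2 were lower, and Trpm5 turned from -1.41 to 0.074 (limma on log2(FPKM + 1)) without a call. The median against WT was 0.50 with FPKM. Neighbours of Cdkn1c hence moved in both directions, as did genes in general (30.0% higher and 29.0% lower in Apc against WT), and allelic expression was not measured.

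Of the genes that regulate or flank Cdkn2a, 12 of 13 were tested. In Apc against WT 8 were higher and 1 lower, with a median of 0.37; limma on log2(FPKM + 1) gave 9 and 0 with a median of 0.75, and the call of Ring1 was lost. Hmga2, a chromatin protein that lowers Cdkn2a in stem cells (1.32, SE 0.13), and Mtap (1.23, SE 0.10) were highest, and Ring1, a Polycomb subunit, was the lower one (-0.30, SE 0.07). The Polycomb genes Ezh2 (0.51, SE 0.07), Suz12 (0.35, SE 0.07) and Bmi1 (0.38, SE 0.13) were among the 8. Against P-Rspo3, 7 were higher and 2 lower on counts (Cbx8 at -0.55, SE 0.14, and Ring1 at -0.28, SE 0.07), and 9 and 0 with FPKM.

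Genes whose log2(CPM + 1) followed that of each of the 10 most closely over the 13 libraries were ranked by Pearson's r. The libraries fall into Apc and the rest, so for genes that separate these groups a high r is shared with many others, and no test is attached. For Ccnd1 they were Champ1, Ipo9 and S100a11 (0.994, 0.994 and 0.993); for Cdkn2b Tmem139, Pcyt1a and Tmem253 (0.993, 0.992 and 0.992). Cdkn2a was followed by Serpinb11, Fzd10 and Lca5 (0.996, 0.995 and 0.994), Cdkn1c by Prmt6, Laptm4b and Acsl4 (0.979, 0.972 and 0.971) and Cdk6 by Phip, Pias1 and Phc3 (0.984, 0.981 and 0.980). After the group means were taken out, r was 0.957 for Cdk6 with Phip, 0.932 for Cdkn2b with Tmem139, 0.906 for Ccnd1 with Champ1 and 0.696 for Cdkn2a with Serpinb11. The remaining genes, whose Apc libraries overlapped WT, P-Rspo3 or both, had lower values: Hmmr, Prrg1 and Fam83h for Ccnd2 (0.868 to 0.863), Jmjd6, Sec61a1 and Adcy8 for Ccnd3 (0.833 to 0.816), Ptdss2, Plekho2 and Apol7a for Cdkn1a (0.922 to 0.913), Usp42, 1700019D03Rik and Kif21a for Cdkn1b (0.910 to 0.865), and Thap11, Smim13 and Slamf9 for Cdkn2c (0.861 to 0.801). With the group means removed, r for the first gene of each ran from 0.772 (Ccnd2) to 0.923 (Cdkn1b). All followers were picked by r over these same libraries, so these values do not rank the genes against those above.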

How the data were processed

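RNA sequencing of 13 grouped organoid libraries was analysed; 2 further libraries entered alternatives only. After alignment to GRCm38 with STAR, the authors counted reads on Ensembl genes with HTSeq 0.6.0 and deposited these raw counts, together with FPKM from Cufflinks 2.2.1. The annotation release and the strand setting are not given in the sources used here, so reads in overlaps with antisense genes are uncertain. Libraries were treated as separate cultures, which the labels do not establish for P-Rspo3, and p-values measure the spread between them.

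For each pair of groups, edgeR 4.0.16 (R 4.3.3; TMM, glmQLFit and glmQLFTest at their defaults) was run on the counts of genes whose FPKM reached 0.1 in a number of libraries no smaller than the smaller group, with Benjamini-Hochberg adjustment over all of them. SE is the log2 fold change divided by the square root of F. Tested on simulated counts in which 200 genes were changed, it recovered 193 (Apc against WT, 12 false calls, 16749 genes), 194 (P-Rspo3 against WT, 10 false calls, 15992 genes) and 196 (Apc against P-Rspo3, 10 false calls, 16456 genes). The changed genes had counts well above the floor and were all given large fold changes. These recoveries therefore do not measure the power for small changes or for genes with few counts. Depth was 28902729 to 35528495 counts per library, and FPKM values are the authors' own estimates. Genes named besides the 10 are the 2 largest and 2 smallest fold changes past the test of each list, those needed to describe the cultures, and the 3 most correlated genes (mean of at least 1 CPM). Cdk4, Cdkn2d, Trp53, Ezh2, Suz12, Bmi1, Kdr, Cdh5, Tek, Pecam1, Pdgfra, Pdgfrb, Cd68, Itgam, Csf1r, Fbxo31, LTO1 and Bysl were named after their values were seen. The genes and lists were chosen with earlier results of these data known.

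Apc and WT libraries whose titles share a number were taken to be of 1 line each, which the titles do not state. Over these 4 pairs the deviations from the group means had correlations of 0.0219 to 0.200 (median 0.0933), and the median over the remaining 12 pairs was -0.0300. Alternatives were DESeq2 1.42.0 and its size factors, the other form of the test, stricter and absent filters, a fit over the 3 groups together, leaving out each library, limma 3.58.1 on log2(FPKM + 1) and log2(FPKM + 0.1), the ungrouped libraries placed by or against their genotype label, WT of the flox lines only, and the line block.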

Additional observations from a re-analysis of the deposited data

Results flagged for a closer look

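Of 30 sets of values (10 genes in 3 groups) examined for a library far from the rest by Dixon's test, 1 stood out, where chance gives about 1 in 20. Ccnd1 in WT 5 had 20.9 FPKM, below the 29.2 to 31.8 of the other WT libraries. Without this library the log2 fold change of Ccnd1 in Apc against WT was 2.01.

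Among the 20 values of the ungrouped libraries, 1 lay above every WT library: Cdkn1c had 3.76 FPKM in the library titled LIPO, which carries a dox-naive WT label, against 1.82 to 2.90 in WT and 6.29 to 12.1 in Apc. Another 2 values lay below every WT library. Cdk6 had 4.03 FPKM in LIPO and 3.77 in NAIVE_F, which has a P-Rspo3 genotype label, against 4.17 to 9.16 in WT.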

How the results depend on the processing

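Ccnd1, Cdk6, Cdkn1c and Cdkn2a stayed higher and Cdkn2b lower, past the threshold, in every alternative run for both comparisons with Apc. In the fits of 2 groups that kept the filter on FPKM, Cdkn2a passed it against WT only through its level in Apc. Of the 10 genes, 0 passed in any alternative of P-Rspo3 against WT; with the stricter filter Cdkn2a was not tested there. Under the replicate block by line, which also leaves out the dox-naive library, Ccnd2 (0.25) lost its call and Cdkn1b (-0.25) gained one in Apc against WT, and no other call changed. WT of the flox lines only, which is the fit without the dox-naive library, gave 0.25 and -0.24 for these. limma on FPKM moved the median of all genes by 0.17 (pseudocount 1) and 0.28 (pseudocount 0.1) in Apc against WT, and the split of all calls from 5028 higher and 4864 lower to 7199 and 3219 or 7204 and 3259; against P-Rspo3 the shifts were 0.16 and 0.25, and the split went from 4719 and 4557 to 6600 and 3105 or 6641 and 3120. Under the 2 pseudocounts 1 of the 10 genes was lower in Apc than in WT in place of 2, as also with the fold threshold, since Cdkn1a (-0.28 and -0.28) lost its call. Ccnd3 (0.28 and 0.29), Cdkn1b (0.020 and 0.021) and Cdkn2c (0.10 and 0.11) turned positive without a call. Against P-Rspo3 Ccnd2 (0.45 and 0.45) gained a call, and Cdkn1a (0.069 and 0.069) and Cdkn2c (0.0063 and 0.0078) turned positive without one. With the ungrouped libraries placed by genotype, Ccnd3 turned to 0.0042 in P-Rspo3 against WT and to -0.0025 in Apc against P-Rspo3; with them exchanged, Cdkn1c turned to 0.20 in P-Rspo3 against WT. Leaving out 1 library at a time gave these ranges where a sign or call changed. In Apc against WT they were 0.25 to 0.37 for Ccnd2, -0.086 to 0.023 for Ccnd3 and -0.24 to -0.14 for Cdkn1b. In P-Rspo3 against WT they were -0.11 to 0.025 for Ccnd3, -0.12 to 0.14 for Cdkn1c, -0.010 to 0.25 for Cdkn2b and -0.0035 to 0.35 for Cdk6. In Apc against P-Rspo3 they were 0.13 to 0.28 for Ccnd2, past the threshold without 15d, -0.055 to 0.087 for Ccnd3 and -0.34 to -0.17 for Cdkn1b, past the threshold without F, so that 1 to 2 genes were lower. Over all genes in P-Rspo3 against WT, DESeq2 gave 204 higher and 304 lower, the flox lines only 232 and 153, and the fit of the 3 groups together 43 and 87, against 1 and 0. The causes of these changes were not tested. With 16 Cdkn2a reads over the WT libraries, depth limits the size of its fold change, which ran from 3.73 (limma with a pseudocount of 1) to 7.52 against WT.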

Other observations

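The ungrouped libraries gave Cdkn2a 1 count (LIPO) and 2 counts (NAIVE_F, with the P-Rspo3 genotype label). They gave Cdkn2b 28.5 and 25.1 FPKM, both within the WT range. Rspo3 was listed at 0 FPKM in LIPO and at 8.54 in the other.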
